A study of Mus musculus musculus x Mus musculus castaneus with 8 samples.

Results

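Among the autosomal genes of these hybrid fibroblasts, 163 read almost entirely from one parental allele in untreated cells. They were chosen from 4937 genes on chromosomes 1 to 19 that had at least 200 allele-assigned reads summed over both untreated libraries, and make up 3.30% of those genes. The choice took every gene with a pooled mus share below 5% or above 95%, after 20 well-known imprinted genes had been set aside. The mus allele was the near-silent one in 93 members and the cas allele in 70. The untreated allele shares chose the members, so those shares, and every allelic value and test below that is set against the untreated libraries, are a description of the members and support nothing about them. Just inside the limits lay Eri1 and Irf2bp1, with 4.84% and 4.49% mus reads, and Galnt13 and Eif4a1, with 95.05% and 95.09%. Just outside lay Ccne1 and Mgp, with 5.02% and 5.12%, and Ftl1 and Actb, with 94.7% and 94.6%.

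The cells were female tail fibroblasts from an F1 cross of the mouse subspecies musculus and castaneus, in which sequence variants assign a read to the mus or the cas allele. They were sampled after 72 h of growth in 4 groups of 2 libraries. One group received 5azadC, a cytidine analog that blocks DNA methyltransferases, from 24 h after plating. One received VX680, an inhibitor of the Aurora kinases that act in mitosis, another received both drugs (5azadC+VX680), and the untreated group received DMSO alone. DMSO was present in every group, drug doses are not given in the labels, and the labels do not say whether replicates are separate cultures. The p-values therefore measure only the spread between these libraries, which may be technical. The labels also do not say whether the cells descend from 1 clone.

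A gene can be read from one allele for several reasons. Genomic imprinting silences the copy from one parent, a sequence variant in a promoter or enhancer can weaken one parental copy, and some autosomal genes settle on one allele at random and keep that choice through cell division. DNA methylation is one of the marks that can hold an allele silent, and cells treated with 5azadC lose it as they divide. Reads can also look one-sided when variants are few or when a near-identical gene copy takes the reads of one allele.

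Libraries held between 6908503 and 11169532 reads counted per gene, of which 26.1% to 26.9% were assigned to an allele. The mus share of autosomal allelic reads lay between 46.9% and 48.8%. The median member had 138 to 239 allelic reads per library, so that 1 read of the near-silent allele was often most of a percent. The spread between replicates was widest in the 5azadC pair, at 19.9 times the sampling variance, against 3.02 for VX680, 2.74 for 5azadC+VX680 and 7.501 for the untreated pair. Summed over 8 fibroblast markers the level was 18083 to 22494 CPM (counts scaled to a common library size) with 5azadC, 13256 to 13695 with VX680 and 10918 to 11172 with both drugs, against 31078 to 34833 in untreated cells. Marker sums of 7 other cell types lay between 0.634 and 47.6 CPM. The sum over 4 adipocyte genes was 8.04 to 8.93 CPM with 5azadC, 16.5 to 19.3 with VX680 and 24.8 to 25.8 with both drugs, against 3.34 to 4.35 untreated. Over 5 endothelial genes it was 1.23 to 2.22, 3.74 to 5.59 and 3.70 to 3.92 CPM with 5azadC, VX680 and both drugs, against 0.634 to 1.02 untreated, with Emcn at 0 in every library. Over 5 skeletal muscle genes it was 38.8 to 47.6, 28.03 to 29.3 and 27.6 to 28.3 CPM in the same order, against 19.6 to 20.7 untreated. Adipocyte, endothelial and muscle sums were thus higher in every treated library than in both untreated ones. Over 6 leukocyte genes the sum was 16.4 to 21.4 CPM with 5azadC, 20.1 to 21.3 with VX680 and 19.06 to 25.6 with both drugs, against 15.8 to 19.03 untreated. For 4 chondrocyte genes the sums were 25.65 to 28.9, 9.84 to 12.4 and 16.9 to 19.5 CPM with 5azadC, VX680 and both drugs, against 27.7 to 29.8 untreated. For 4 melanocyte genes, Tyr among them at 0 in every library, they were 0.693 to 2.01, 2.75 to 5.05 and 1.26 to 2.74 CPM, against 4.62 to 5.66 untreated. For 5 keratinocyte genes they were 2.34 to 2.36, 2.16 to 2.66 and 1.82 to 2.06 CPM, against 1.36 to 2.47 untreated. The part of these sums in the results below was not tested. In bulk RNA fewer cells that use an allele and less RNA per cell cannot be told apart.

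The members were mostly protein-coding genes (156), with 4 non-coding RNA genes and 3 pseudogenes. Untreated allelic reads per member lay between 201 and 99359, with a median of 393. In 83 members the near-silent allele took less than 1% of untreated reads. For 10 members not 1 read of that allele was counted in any of the 8 libraries, which allows a share of up to 0.204% to 0.655% by the limit of 3 counts. Intervals and such limits cover counting error only. The 4 of these with most reads were Adam33, a metalloprotease of mesenchymal cells, Pkmyt1, an inhibitory kinase of Cdk1, the histone gene Hist1h2ae and the pseudogene Atp6v0c-ps2.

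Chromosome 2 held 62 of the 163 members, or 16.8% of its 368 genes that could be taken. On the other autosomes the share was 0.313% to 7.96%. Of its members 49 had a near-silent cas allele, which is most of the 70 such members in all. They were not spread along the chromosome. In the gene order of GENCODE M21, used only for order, 46 of the 84 genes from Gorasp2 to Pcna (54.8%) read more than 95% mus. In the rest of the chromosome this held for 1 of the 269 genes that could be placed (0.372%), and on other autosomes for 21 of 4569 (0.460%). The longest unbroken run was 15 genes, from B2m to Ckap2l.

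**Figure D1:**
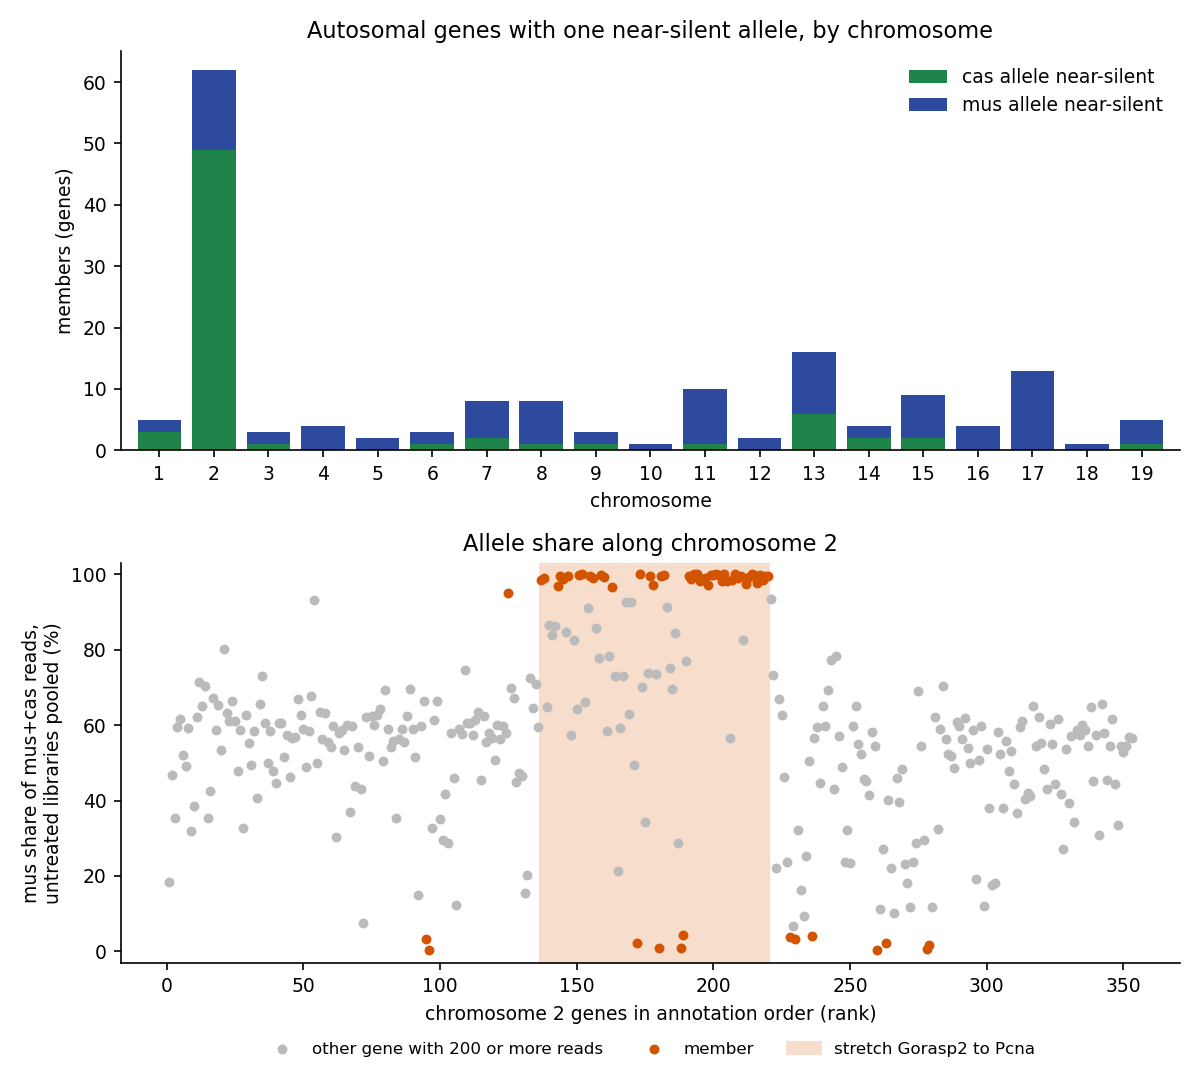
Upper panel: number of members on each autosome (bars), split by the near-silent allele. Lower panel: mus share of mus+cas reads (%, both untreated libraries pooled) for each chromosome 2 gene with 200 or more reads, in annotation order, with members coloured and the stretch from Gorasp2 to Pcna shaded; 46 of the 84 genes in it lie above 95%.

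The stretch was not uniform. Of its other 38 genes, 4 read below 5% mus, among them the spindle checkpoint kinase Bub1b (0.912% mus) and the protein disulfide isomerase Pdia3 (0.775% mus), and 34 lay between the limits. Those 34 comprised 12 genes with 80% to 95% mus reads, 18 with 50% to 80% and 4 with 20% to 50%. Genes with at least 20 but fewer than 200 untreated reads, which the choice of members did not use, gave the same picture. There 90 of 172 genes in the stretch (52.3%) read more than 95% mus, against 17 of 232 in the rest of chromosome 2 (7.33%) and 56 of 4633 on other autosomes (1.21%). The stretch itself was drawn around the members, so these shares carry no test. Allele-assigned reads were a median 25.5% of all reads per gene in the stretch, 29.3% in the rest of chromosome 2 and 33.1% on other autosomes. Their part in the pattern was not tested.

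The genes of the stretch serve unrelated tasks. B2m encodes the invariant light chain of MHC class I molecules and Pcna the sliding clamp of DNA replication. Itgav is an integrin subunit, Fbn1 encodes the microfibril protein fibrillin and Thbs1 the matrix protein thrombospondin. The pooled cas share of B2m was 1.25% with 5azadC, 0.553% with VX680 and 0.0979% with both drugs, against 0.465% in untreated cells. For Pcna it was 1.1%, 0.95% and 0.256%, against 0.333% in untreated cells, and for Itgav 0.925%, 0.509% and 0.485%, against 0.226%. Across the 46 members of the stretch the median cas share was 1.06% with 5azadC, 0.872% with VX680 and 0.828% with both drugs, against 0.464% untreated. Pooled over their reads it was 1.89%, 1.58% and 1.31%, against 1.49% untreated, so with both drugs the 2 measures differed in direction. The median difference per gene from untreated was 0.053, 0.176 and 0 percentage points. The share was higher in 25, 26 and 22 of these members and lower in 16, 17 and 19. No member of the stretch exceeded 10% in both libraries of any group.

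Beyond chromosome 2 the next longest stretch was on chromosome 17, where 5 of 9 genes from Pkmyt1 to Ccnf had a near-silent mus allele. Other runs held 3 or 4 members. Clustered histone genes gave 12 members of 45 with enough reads (26.7%). Reads of such near-identical genes can be shared, so their allele shares are uncertain. The same holds for the RNA component of RNase P (Rpph1) and its copy Rprl3, for the pseudogene Atp6v0c-ps2, and for Gm7367 and Ubald2. The last pair had 1641 and 1644 allelic reads over all libraries, and their counts differed by a sum of only 3 reads. Hist4h4, a histone H4 gene, had a pooled cas share of 0.272% with 5azadC, 0.145% with VX680 and 0.301% with both drugs, against 0.296% untreated. Hist1h2an, a histone H2A gene, had 0.84% and 0.901% cas with 5azadC, 3.86% and 1.56% with VX680 and 2.45% and 3.67% with both drugs, against 2.26% and 3.47% untreated, where its allelic reads were 2166 and 346.

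Imprinted genes outside the list set aside gave 3 members of 12 with enough reads. They are Kcnq1ot1, the long RNA made from the paternal copy of the Kcnq1 domain, Peg13, a non-coding RNA, and Slc38a4, an amino acid transporter. The pooled share of the near-silent cas allele of Kcnq1ot1 was 1.71% with 5azadC, 0.445% with VX680 and 1.83% with both drugs, against 2.19% untreated. For Slc38a4 it was 0.656%, 3.95% and 2.88%, against 2.42% untreated. Peg13 had 0% and 9.72% in the 5azadC libraries, 2.27% and 0% with VX680 and 7.14% and 0% with both drugs, against 2.04% and 1.89% untreated, on 42 to 147 reads each. None of these 3 genes passed the ratio test in a comparison with untreated cells.

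Interferon-inducible families gave 1 member of 5, Ifit2. Ribosomal protein genes and their copies gave 3 of 37 (Rpl3, Rpl23a and Rps10), small and structural RNA genes 1 of 9, and predicted or clone-named genes 5 of 101. The mus share of Rps10 was 1.75% and 15.4% with 5azadC, 5.66% and 3.08% with VX680 and 7.14% and 6.06% with both drugs, against 1.96% and 4.84% untreated. For Rpl3 the pooled share was 6.13%, 4.01% and 3.55%, against 4.12% untreated, and for Rpl23a 2.53%, 4.17% and 2.45%, against 0.82% untreated. Reads of ribosomal protein genes can be shared with their many pseudogenes. Zinc finger genes gave 1 of 86 (Zfp367, a regulator of S phase genes, at 3.45%, 5.19% and 3.4% mus, against 3.68% untreated), clustered protocadherins 0 of 28 and glutathione S-transferases 0 of 4. No germline gene known to be silenced by DNA methylation and no MHC class I gene reached 200 reads, so neither list could give a member. Of X-linked genes, 71 of 85 with enough reads met the same share limits, as did 5 of the 6 such genes on the imprinted list set aside.

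The question asked of these genes is whether either drug raised the near-silent allele. Pooled shares above 10% were reached by 6 members with 5azadC, 2 with VX680 and 6 with both drugs, and the other shares lay on both sides of the untreated ones. Such a share did not always mean a higher level of that allele. With 5azadC the level was 0.423 times the untreated one in Col14a1 and 0.997 times in Thbd. It was 4.39 to 17.3 times in Hist1h4i, Tep1, Eng and Ifit2. With both drugs it was 0.0677 times in Col14a1 and 0.903 times in Igfbp5, and 2.71 to 8.44 times in Eng, Ucp2, Tep1 and Ifit2. With VX680 it was 3.65 times in Ifit2 and 8.08 times in Hist1h4i. With 5azadC the pooled share of the near-silent allele was above the untreated one in 80 members, below it in 68 and equal in 15. With VX680 these counts were 81, 70 and 12, and with both drugs 82, 68 and 13. The median share was 1.18% with 5azadC, 1.14% with VX680 and 1.19% with both drugs, against 0.952% in untreated cells. Because low untreated values chose the members, some return upward is built into these differences. A return upward was also seen between the untreated libraries themselves, and its part in the drug values was not tested. Of 191 genes chosen on untreated library 1 alone, 10.99% to 16.2% read above 5% in the 6 drug-treated libraries, against 10.5% in untreated library 2. Of 130 genes chosen on untreated library 2, 9.23% to 13.1% did so with drugs, against 6.92% in untreated library 1. Above 10% the shares were 2.62% to 5.76% with drugs and 2.09% in the other untreated library for the first choice. For the second choice they were 3.08% to 5.38% and 1.54%. At both cutoffs each drug-treated library lay above the untreated library that had not chosen the genes. The medians did not. For the first choice the median share was 1.14% in untreated library 2, against 0.865% to 1.16% with drugs. For the second it was 0.973% in untreated library 1, against 0.833% to 1.13%. Depth also differed, with a median of 239 and 145 allelic reads per member in untreated libraries 1 and 2 and 138 to 205 with drugs. The part of depth in these shares was not tested.

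**Figure D2:**
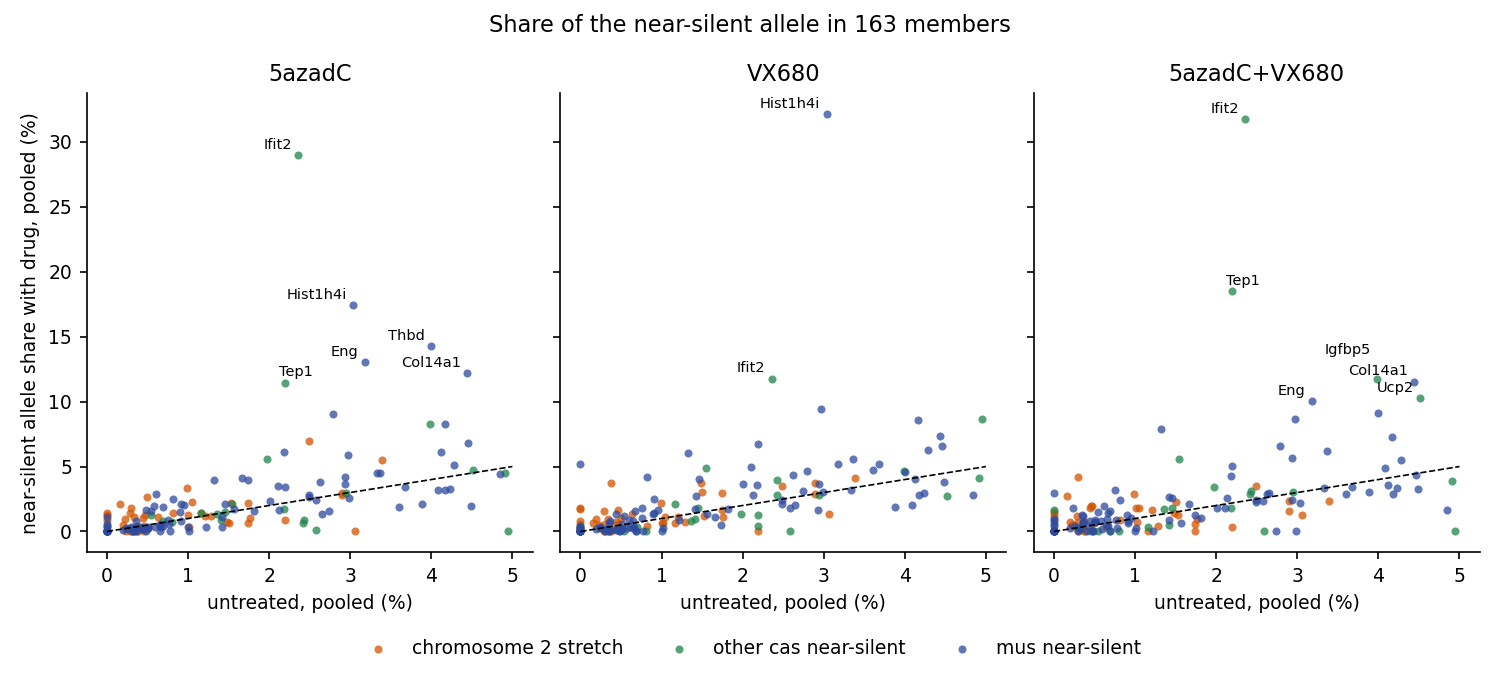
Pooled share of the near-silent allele (%) in each of the 163 members, with 5azadC, VX680 or both drugs on the y axis and untreated cells on the x axis. The dashed line marks equal shares; orange points are members of the chromosome 2 stretch, green other members with a near-silent cas allele and blue those with a near-silent mus allele. Labelled genes exceed 10% with the drug: the highest are Ifit2 at 29.0% with 5azadC and 31.8% with both drugs, and Hist1h4i at 32.1% with VX680.

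Shares above 10% in both libraries of a group were reached by 3 members with 5azadC (Ifit2, Tep1 and Col14a1), 1 with VX680 (Ifit2) and 3 with both drugs (Ifit2, Tep1 and Ucp2). Ifit2, on chromosome 19, is an interferon-induced gene whose product binds RNA and restrains translation. Its cas allele gave 53 of 179 and 25 of 90 reads with 5azadC (29.6% and 27.8%) and 9 of 81 and 9 of 72 with VX680 (11.1% and 12.5%). With both drugs it gave 11 of 33 and 23 of 74 reads (33.3% and 31.1%), against 4 of 153 and 1 of 59 in untreated cells (2.61% and 1.69%). Each drug-treated library lay above both untreated ones, and the VX680 pair lay between the untreated and the other drug libraries. The mus allele stood at 11.5 ± 3.57 CPM with 5azadC, 7.73 ± 0.918 with VX680 and 5.04 ± 2.77 with both drugs, against 10.96 ± 3.59 untreated (SD, n = 2 each). The cas allele stood at 4.69 ± 1.73, 1.04 ± 0.221 and 2.35 ± 1.14 CPM, against 0.254 ± 0.154 untreated.

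Tep1, on chromosome 14, encodes a component of telomerase and of vault particles. Its cas share was 11.04% and 12.3% with 5azadC, 1.90% and 0% with VX680 and 16.7% and 20.2% with both drugs, against 1.44% and 3.37% untreated. The 4 libraries with 5azadC, alone or combined, lay above the 4 without it. Read counts were small, at 17 of 154 and 9 of 73 with 5azadC, 2 of 105 and 0 of 49 with VX680 and 13 of 78 and 17 of 84 with both drugs, against 2 of 139 and 3 of 89 untreated. The total level of Tep1 was 39.1 ± 11.6 CPM with 5azadC, 28.7 ± 4.15 with VX680 and 32.2 ± 3.02 with both drugs, against 40.4 ± 6.74 untreated (SD, n = 2 each).

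Thy1, a surface glycoprotein that is itself 1 of the 8 fibroblast markers, was measured on more reads than Ifit2 and Tep1. The cas allele gave 29 of 1115 and 15 of 979 reads with 5azadC (2.60% and 1.53%) and 74 of 1464 and 54 of 1151 with VX680 (5.05% and 4.69%). With both drugs it gave 70 of 1009 and 45 of 1045 (6.94% and 4.31%), against 7 of 679 and 11 of 487 untreated (1.03% and 2.26%). All 4 libraries with VX680 lay above the other 4, and the 5azadC and untreated pairs overlapped. Both alleles were higher with drugs. The mus allele stood at 127 ± 8.83 CPM with 5azadC, 141 ± 6.51 with VX680 and 134 ± 4.00 with both drugs, against 65.0 ± 5.80 untreated. For the cas allele the levels were 2.66 ± 0.817, 7.23 ± 0.0674 and 7.98 ± 2.57 CPM, against 1.12 ± 0.681 untreated (SD, n = 2 each).

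**Figure D3:**
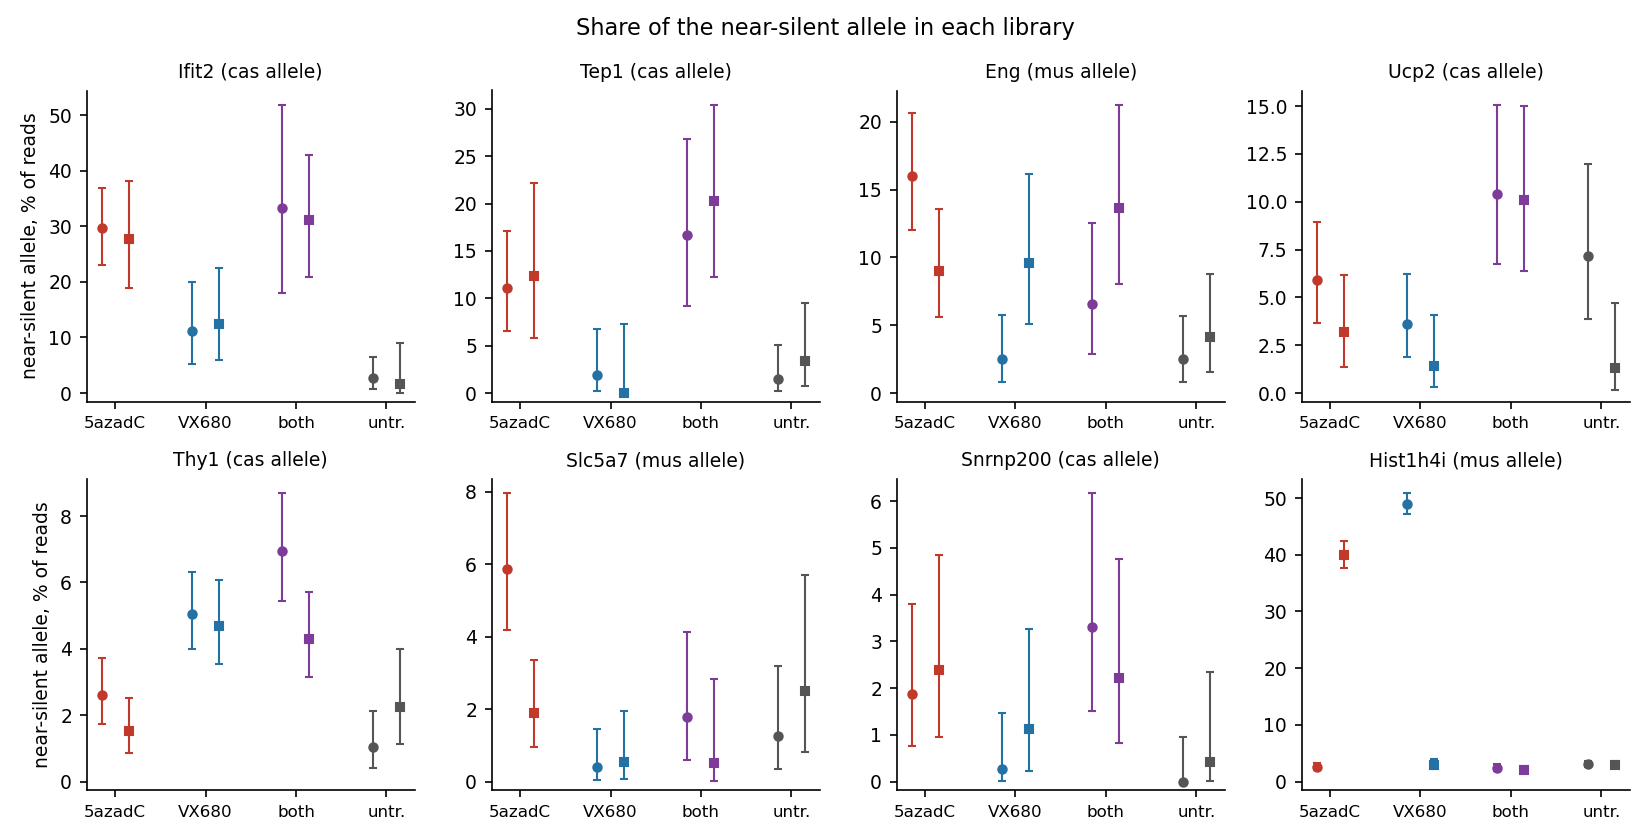
Share of the near-silent allele (% of mus+cas reads) in each library for 8 members; circles are replicate 1, squares replicate 2, and bars are exact (Clopper-Pearson) 95% binomial intervals for counting error only. "Both" is 5azadC+VX680 and "untr." is untreated. Ifit2 and Tep1 are high in both 5azadC+VX680 libraries, and Hist1h4i is high in 1 library of each single-drug group.

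Ucp2, a mitochondrial carrier, had a cas share of 5.90% and 3.19% with 5azadC, 3.63% and 1.42% with VX680 and 10.4% and 10.1% with both drugs, against 7.18% and 1.32% untreated. Eng, the TGF-beta co-receptor endoglin, lies on chromosome 2 outside the stretch and has a near-silent mus allele. That allele took 16% and 9.01% with 5azadC, 2.50% and 9.60% with VX680 and 6.56% and 13.7% with both drugs, against 2.49% and 4.14% untreated. Both 5azadC and both combined libraries of Eng lay above the untreated pair, whereas VX680 overlapped it. Snrnp200, a spliceosome helicase in the chromosome 2 stretch, had 7 cas reads of 375 and 7 of 294 with 5azadC, 1 of 376 and 3 of 266 with VX680 and 9 of 273 and 6 of 271 with both drugs, against 0 of 389 and 1 of 236 untreated. On the CPM scale its pooled cas level with both drugs was 18.6 times the untreated one, with an exact counting interval of 2.86 to 784 that reflects the single untreated read. At 2.76% with both drugs the allele remained a small part of the gene's reads.

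In some members a higher share stood beside a lower level of the whole gene. Col14a1, a fibril-associated collagen, had a mus share of 12.7% and 11.9% with 5azadC, 6.90% and 8.33% with VX680 and 20% and 6.25% with both drugs, against 5.34% and 2.87% untreated. Its total level was 33.4 ± 19.09 CPM with 5azadC, 9.40 ± 2.57 with VX680 and 4.15 ± 0.135 with both drugs, against 183 ± 22.6 untreated (SD, n = 2 each). The mus allele itself was at 1.35 ± 0.643, 0.165 ± 0.0450 and 0.209 ± 0.101 CPM, against 2.85 ± 1.36 untreated. Thbd, the thrombin receptor thrombomodulin, gave 14.3% mus reads with 5azadC on 63 reads in all, against 4.00% of 250 untreated reads.

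Several other members had pooled shares that were higher with a drug but did not pass. Igfbp5, an insulin-like growth factor binding protein, had a cas share of 13.2% and 6.06% with 5azadC, 5.13% and 4% with VX680 and 6.9% and 15.4% with both drugs, against 4.09% and 3.81% untreated. The cleavage factor gene Cstf2t had 3.38% and 8.33% mus with 5azadC, 12.9% and 4.96% with VX680 and 8.55% and 8.89% with both drugs, against 2.26% and 4.35% untreated. Habp4, an RNA-binding protein gene, had a pooled mus share of 3.46%, 6.73% and 5.06%, against 2.19% untreated. Parm1, a mucin-like membrane protein gene, had 4%, 6.06% and 7.89%, against 1.32% untreated, with only 38 reads in all with both drugs. For Cstf2t the 5azadC pair overlapped the untreated one, and the VX680 and combined pairs lay above it. A higher share did not always go with a higher level of the near-silent allele. Relative to untreated cells, the level of that allele in Parm1 was 1.11, 1.01 and 0.931 times with 5azadC, VX680 and both drugs. These rest on 4, 4 and 3 reads, against 4 untreated. In Igfbp5 it was 2.01, 0.829 and 0.903 times. It was 3.32, 4.39 and 3.72 times in Cstf2t and 1.60, 3.15 and 2.21 times in Habp4.

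Some high values rested on 1 library. The mus allele of the histone H4 gene Hist1h4i took 2.59% and 40.02% with 5azadC, 49.0% and 2.996% with VX680 and 2.40% and 2.01% with both drugs, against 3.09% and 2.95% untreated. The gene's total level was 467 ± 70.1 CPM with 5azadC, 399 ± 3.88 with VX680 and 462 ± 26.3 with both drugs, against 575 ± 26.5 untreated (SD, n = 2 each). Plrg1, a splicing factor, gave 17 mus reads of 163 in VX680 library 1 and 0 of 165 in VX680 library 2, and the same allele had 0 reads in both untreated libraries. Wipf1, an actin regulator in the chromosome 2 stretch, gave 15 cas reads of 248 in VX680 library 1 and 0 of 155 in library 2.

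Against untreated cells, the allelic ratio was tested by edgeR's quasi-likelihood test over all genes with a mean of 10 allelic reads per library, with Benjamini-Hochberg adjusted p under 0.05. The 3 comparisons share the same 2 untreated libraries. With 5azadC 1 of 163 members (0.613%) moved toward the near-silent allele (Ifit2), where 0.233% of the 10301 genes tested moved toward the allele with fewer untreated reads. With VX680 it was 1 (Thy1), beside 0.233% of all genes. Ifit2 shifted by 2.42 ± 0.73 with VX680 (log2 ratio ± SE, edgeR adjusted p = 0.25). With both drugs 5 members moved (Ifit2, Tep1, Thy1, Snrnp200 and Rprl3), or 3.07%, beside 0.388% of all genes. Since the untreated libraries chose the members, nothing is read from these counts, calls and p-values or from their loss with a library left out. Rprl3 passed with a small shift, a cas share of 1.75% and 1.83% with both drugs, against 1.49% and 1.40% untreated, on 17784 to 24949 reads in each of those libraries. In the other direction the histone gene Hist1h2an moved with 5azadC, where 0.0485% of all genes moved away from the allele with fewer untreated reads. By edgeR 0 members moved away with VX680 or with both drugs, beside 0.146% and 0.126% of all genes, with 6 and 5 at an unadjusted p under 0.05 by edgeR and 2 and 2 by DESeq2. Without untreated library 1 the count for both drugs was 1 and for VX680 0, since Thy1, Tep1, Snrnp200 and Rprl3 no longer passed. The count was 3 for both drugs without one or the other of their libraries, 4 for VX680 without VX680 library 2, and 2 for 5azadC without one or the other 5azadC library. The Hist1h2an call was lost without one or the other 5azadC library or untreated library 1. DESeq2, which called at most 1 of the 10301 genes in any of these comparisons, called no member toward the near-silent allele, and its adjusted p for Ifit2 was 0.16 with 5azadC and 0.098 with both drugs. Members at an unadjusted p under 0.05 toward the near-silent allele numbered 18, 13 and 17 by edgeR and 7, 3 and 7 by DESeq2 with 5azadC, VX680 and both drugs.

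The level of the near-silent allele alone could be tested in 153 members. It passed upward in 7 with 5azadC (Eng, Hist1h4i, Ifit2, Slc5a7, Tep1, Thbs1 and Thy1), where 10.6% of all gene alleles rose, and downward in 1 (Ctsl), where 7.31% fell. With VX680 it passed upward in 3 (Hist1h4i, Plrg1 and Thy1) and downward in 2 (Col14a1 and Hist1h2an), beside 10.5% and 10.1% of gene alleles. With both drugs it passed upward in 5 (Ifit2, Snrnp200, Tep1, Thy1 and Ucp2) and downward in 3 (Col14a1, Hist1h2an and Thbs1), beside 14.2% and 15.5%. Nothing is read from these counts and calls either, since the untreated libraries chose the members. For 5azadC the upward count was 3 without one or the other untreated library. For both drugs it was 3 without one or the other of their libraries, and for VX680 1 without VX680 library 1 or untreated library 2. The authors' deposited allelic table of each comparison also lists the near-silent allele, here at a false discovery rate under 0.05. It was up in 12 of 163 members with 5azadC, 12 of 160 with VX680 and 16 of 159 with both drugs. It was down in 8, 13 and 9. The share of all genes called in those tables was not taken, so nothing is read from these counts. Some calls rest on an allele without untreated reads. Eid1, Secisbp2l and Stard7, at 100% mus untreated, are listed as up with 5azadC by 7.03, 6.48 and 6.18 (log2).

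Comparisons between drug groups used the 6 drug-treated libraries, which had no part in choosing the members. Between 5azadC and VX680, 1 of 162 members tested moved toward the near-silent allele and 2 moved away from it, beside 0.225% and 0.0685% of the 10212 genes tested. Slc5a7, a choline transporter on chromosome 17, had 38 mus reads of 648 and 11 of 580 with 5azadC (5.86% and 1.90%), against 2 of 497 and 2 of 366 with VX680 (0.402% and 0.546%). The shift was 3.05 ± 0.59 (log2 ratio ± SE, edgeR adjusted p = 0.0046). With a library left out it ranged from 1.97 to 3.65, and it no longer passed without 5azadC library 1 or VX680 library 1. The untreated pair, at 1.26% and 2.49%, lay above the VX680 pair and overlapped the 5azadC pair.

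Thy1 and the lysosomal protease Ctsl moved the other way. For Thy1 the log2 ratio was -1.26 ± 0.24 in 5azadC against VX680 (SE, edgeR adjusted p = 0.0031). It ranged from -1.71 to -0.94 with a library left out and was lost without 5azadC library 2 or VX680 library 1. Ctsl had a mus share of 0.272% and 0.398% with 5azadC, against 1.73% and 1.81% with VX680, a log2 ratio of -2.35 ± 0.49 (SE, edgeR adjusted p = 0.0078). Untreated cells had 1.43% and 1.39%, near the VX680 values, so in Ctsl the 5azadC pair was the lower one. The Ctsl call was lost without any 1 of those 4 libraries, at log2 ratios of -2.63 to -2.12.

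Between drug groups the level of the near-silent allele could be tested in 150 of the 163 members. It was higher with 5azadC than with VX680 in 5 members (Eng, Ifit2, Slc5a7, Tep1 and Thbs1), or 3.07% of the 163. It was lower in 2 (Ctsl and Thy1), or 1.23%. These counts were near the 3.07% and 1.35% of all gene alleles. For Tep1 the difference was 3.65 ± 0.92 (log2 ± SE, edgeR adjusted p = 0.021) and for Ifit2 2.19 ± 0.49 (adjusted p = 0.0084). Eng differed by 2.03 ± 0.56 (adjusted p = 0.037). In Thbs1 both alleles differed alike. Its cas allele was higher by 1.22 ± 0.24 (adjusted p = 0.0030) and its mus allele by 1.22 ± 0.13 (adjusted p = 1.1e-06), and the cas share was 2.55% and 3.09% with 5azadC, against 2.96% and 2.78% with VX680. All 7 calls were lost without one or the other VX680 library and without 1 of the 5azadC libraries, library 2 for Thbs1 and Thy1 and library 1 for the others.

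**Figure D4:**
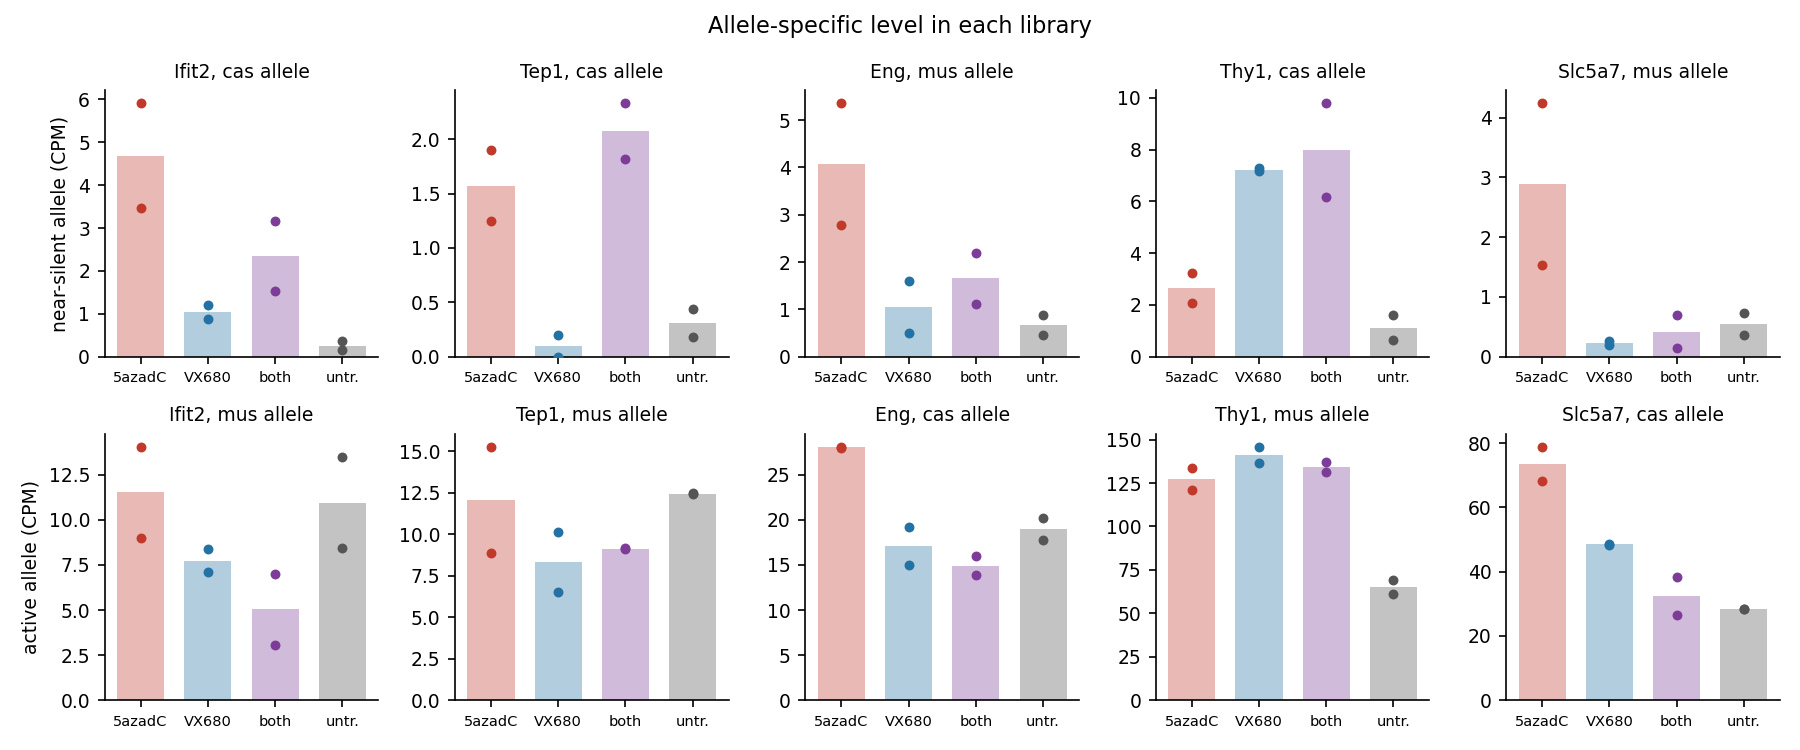
Level of the near-silent allele (upper row) and the active allele (lower row) of 5 members in CPM; bars are means of 2 libraries, points the libraries, and each panel has its own axis from 0. "Both" is 5azadC+VX680 and "untr." is untreated. The cas allele of Ifit2 averages 4.69 CPM with 5azadC and 0.254 CPM in untreated cells, while its mus allele averages 11.5 and 10.96 CPM.

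With both drugs against 5azadC alone, 1 member moved toward the near-silent allele, beside 0.0588% of genes tested. This was Thy1, with a log2 ratio of 1.46 ± 0.24 (SE, edgeR adjusted p = 0.00053). The call was lost without 5azadC+VX680 library 1, at 1.07. The near-silent allele alone was higher in Thy1 (0.613% of the 163 members) and lower in Hist1h4i, Slc5a7 and Thbs1 (1.84%), beside 2.41% and 5.8% of gene alleles. The Hist1h4i difference was lost without one or the other combined library or without 5azadC library 2, which held its high value, and was then -0.28. The Slc5a7 difference, -2.76 ± 0.77 (log2 ± SE, adjusted p = 0.028), was lost without 5azadC library 1 or 5azadC+VX680 library 2. That of Thbs1, -1.76 ± 0.26 (adjusted p = 7.7e-05), passed with each library left out, and its cas share was 2.73% and 2.01% with both drugs, against 2.55% and 3.09% with 5azadC. Without 5azadC library 1 the ratio count was 2, and without 5azadC library 2 the near-silent allele was higher in 3.

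With both drugs against VX680 alone, 2 members moved toward the near-silent allele, beside 0.118% of genes tested. Tep1 shifted by 3.95 ± 0.83 (log2 ratio ± SE, edgeR adjusted p = 0.017) and Ucp2 by 2.004 ± 0.44 (adjusted p = 0.033). The near-silent allele alone was higher in 1 member (0.613% of the 163), beside 0.523% of gene alleles, and lower in 1 (0.613%), beside 1.0%. That of Tep1 was higher by 4.05 ± 0.90 (log2 ± SE, edgeR adjusted p = 0.021) and that of Hist1h4i differed by -3.62 ± 0.91 (adjusted p = 0.045). The Hist1h4i call was lost without VX680 library 1 or one or the other 5azadC+VX680 library, where log2 values reached -0.16, and by DESeq2. In the ratio test DESeq2 called 0 members toward the near-silent allele in these 3 comparisons between drugs, and 0 to 2 of all genes. At an unadjusted p under 0.05 DESeq2 had 3 to 5 members toward that allele and 2 to 4 away from it. By edgeR these were 9 and 16 for 5azadC against VX680. They were 10 and 10 for both drugs against 5azadC and 8 and 10 for both drugs against VX680. Leaving out a library gave shifts of 3.45 to 6.56 for Tep1, with the call lost without 5azadC+VX680 library 2 or one or the other VX680 library. The call on the Tep1 allele alone was lost without any 1 of the 4 libraries. For Ucp2 the shifts were 1.59 to 2.94, with the call lost without any 1 of the 4 libraries. For Ifit2 the log2 ratio was 1.80 ± 0.57 (SE, adjusted p = 0.51), so its higher share with both drugs than with VX680 did not pass.

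The total level of many members differed from that in untreated cells. With 5azadC 33 of 163 rose (20.2%) and 40 fell (24.5%), beside 22.6% and 19.6% of the 12643 genes tested. Among the 4937 autosomal genes with the same read minimum, 23.2% rose and 27.5% fell. With VX680 27 members rose (16.6%) and 59 fell (36.2%), beside 23.8% and 22.4% of all genes and 22.5% and 34.2% of those with the read minimum. With both drugs 31 rose (19.02%) and 61 fell (37.4%), beside 28.4% and 27.3% of all genes and 24.9% and 40.6% of those with the read minimum. The difference between members and genes with the read minimum was not tested.

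The larger rises were in Slc5a7, at 161 ± 17.7 CPM with 5azadC against 65.2 ± 2.63 untreated (log2 1.28 ± 0.11 SE, edgeR adjusted p = 1.1e-06), in Thy1, and in the DNA repair endonuclease gene Ercc1. Ercc1 was at 101 ± 1.88 CPM with both drugs against 43.8 ± 1.77 untreated (log2 1.21 ± 0.10 SE, adjusted p = 2.6e-07). Its mus share was 4.98% and 0.717% with both drugs, against 3.63% and 3.57% untreated. Aldoart2, an aldolase gene, and Akap1, a mitochondrial anchor of protein kinase A, rose by 1.03 ± 0.11 and 0.74 ± 0.11 with VX680 (log2 ± SE, adjusted p = 7.7e-06 and 0.00011). Their near-silent alleles took 2.71% and 0.233% with VX680, against 1.42% and 1.01% untreated. Eif4a1, a helicase of translation initiation, rose by 0.80 ± 0.11 with 5azadC (log2 ± SE, adjusted p = 7.0e-05), with a cas share of 4.54% with 5azadC, against 4.91% untreated.

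Falls were led by Col14a1, which changed by -2.50 ± 0.26 with 5azadC, -4.27 ± 0.29 with VX680 and -5.46 ± 0.34 with both drugs (log2 ± SE, edgeR adjusted p = 5.5e-06, 1.1e-07 and 2.3e-08). Galnt13, a glycosyltransferase, and the stem cell receptor gene Lgr5 fell by 3.63 and 4.30 on the log2 scale with both drugs (adjusted p = 2.6e-07 and 3.2e-06). Fbln7, a matrix protein gene in the chromosome 2 stretch, was at 7.96 ± 1.84 CPM with 5azadC against 34.8 ± 0.932 untreated (log2 -2.13 ± 0.22 SE, adjusted p = 6.7e-06), without 1 cas read in any library. These falls went with the lower summed level of the 8 fibroblast markers in drug-treated cells, although Thy1, itself among those markers, was higher with each drug. The part of the lower sum in these falls was not tested.

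Between drug groups the total level was higher with 5azadC than with VX680 in 35 members (21.5%) and lower in 9, beside 9.33% and 6.47% of all genes and 13.7% and 6.02% of those with the read minimum. With both drugs against 5azadC, 12 were higher and 44 lower, beside 9.98% and 14.8% of all genes and 8.49% and 25.4% of those with the read minimum. With both drugs against VX680, 4 were higher and 9 lower, beside 2.45% and 4.05% of all genes and 1.54% and 8.3% of those with the read minimum. Without one or the other VX680 library the 44 changes between 5azadC and VX680 became 20 or 23, and without any 1 of the 4 libraries the 13 between both drugs and VX680 became 2 or 3. Without one or the other combined library the 56 between both drugs and 5azadC became 36 or 37.

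The members with most reads kept low shares in every group, other than Hist1h4i. Rpph1, on 31442 to 74006 reads per library, had 2.71% and 3.06% cas with 5azadC, 2.85% and 2.78% with VX680 and 3.06% and 3.05% with both drugs, against 3.14% and 2.71% untreated. Tubb5, a beta-tubulin, had 0.555% mus with 5azadC, 0.326% with VX680 and 0.418% with both drugs, against 0.659% untreated. For Scpep1, a serine carboxypeptidase, the pooled mus shares were 0.378%, 0.595% and 0.904%, against 0.511% untreated, and for Arhgap31, a GTPase-activating protein gene, 1.53%, 1.32% and 1.26%, against 0.900% untreated. Fbn1 had 1.23%, 1.15% and 1.63% cas, against 1.20% untreated.

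Over the 71 X-linked genes that met the same limits, the median share of the lesser allele was 0.5% with 5azadC, 0.549% with VX680 and 0.637% with both drugs, against 0.461% untreated. Pooled over reads it was 1.39%, 0.809% and 1.31%, against 0.694% untreated. Over the members the pooled share was 2.49% with 5azadC, 2.82% with VX680 and 2.33% with both drugs, against 2.06% untreated, and without histone and non-coding RNA members 1.97%, 1.85% and 1.85%, against 1.52% untreated. The difference between X-linked genes and members was not tested.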

How the data were processed

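The submitters' processing notes name build mm9, TopHat2 2.0.10, HOMER 4.8 and edgeR, without their order. Total RNA was made into dUTP directional libraries, per the labels. The authors deposited raw counts per gene for both alleles together and raw counts assigned to mus or cas, for 24421 genes; how reads were assigned is not given in the sources used here. Their allelic comparison tables hold a per-sample signal, log2 fold changes and p-values with false discovery rates, per the file headers. A gene length column, an other quantity in bases per the file headers, was not used.

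The members and gene lists were chosen with earlier results of these data known. Near-silent shares are reads of that allele over mus+cas reads, with exact 95% binomial intervals. Allelic ratios were tested with edgeR 4.0.16 in R 4.3.3, with a term per library, a mus term per group and 1 size for both columns of a library, where allelic reads averaged 10 or more. Single alleles and total counts were tested with TMM factors from the total counts, and total counts were first passed through filterByExpr. All used quasi-likelihood tests with Benjamini-Hochberg adjustment over all features. CPM divides by those library sizes. Comparisons with untreated cells used all 8 libraries, and allelic comparisons between drugs the 6 drug-treated ones. The fits were also run on simulated data with a fixed spread and a fixed effect size, unlike these libraries, so nothing is read from that run. Named genes are those with the largest share changes, most reads, values nearest the limits, calls, 0 reads, list membership or largest total changes. Others were chosen after their values were seen (Bub1b, Pdia3, B2m, Pcna, Itgav, Wipf1). DESeq2 1.42.0 and other settings were tried as alternatives. Gene order came from GENCODE M21, and a stretch chains members with the same near-silent allele at most 10 genes apart.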

Additional observations from a re-analysis of the deposited data

Results flagged for a closer look

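The mus allele of Hist1h4i, a histone H4 gene, stood out for a difference between the effects of the drugs. The shift of its allelic ratio with both drugs was lower than the sum of the shifts with each drug, by -6.01 ± 1.17 (log2 toward the mus allele ± SE, edgeR adjusted p = 0.013). Of 10301 genes tested, 0.0485% passed this test. The value rests on 5azadC library 2 and VX680 library 1, with 40.02% and 49.0% mus reads; the other 6 libraries had 2.01% to 3.09%.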

How the results depend on the processing

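Each value was recomputed with 1 choice changed at a time. Leaving out 1 library turned the sign of single genes against untreated cells. The near-silent allele of Hist1h4i was at -0.49 with 5azadC and -0.64 with VX680 (log2). The allelic ratio spanned -1.06 to 1.60 for Habp4 with 5azadC, -0.89 to 6.62 for Plrg1 with VX680 and -2.46 to 2.10 for Thbd with both drugs, and 6 other ratios also crossed 0. Limits on the mus share of 2% and 98% or 10% and 90% and a minimum of 400 reads give sets of 112, 232 and 76 genes, so the counts move with the set size. Replicate numbers did not pair the libraries (correlations of ratio deviations of -0.033 to 0.038, and of total deviations of -0.062 to 0.033). With the replicate block, 3 near-silent alleles rose with 5azadC in place of 7, while for both drugs 0 fell against VX680 in place of 1, and 1 ratio moved away from the near-silent allele against 5azadC and 1 against VX680 in place of 0. Dividing by DESeq2 size factors, TMM factors over the 16 allelic columns and use of all libraries moved no count past that limit other than the one named below. The allele test could be run in 153 of 163 members against untreated cells and in 150 between drug groups. The cause of the other moves was not tested. Sets without the chromosome 2 stretch and without histone and non-coding RNA members were chosen after seeing the data, and moved no count of ratios toward the near-silent allele, of near-silent alleles that rose or of total changes in both directions together by over 1.5 times. Without the stretch, totals that fell numbered 26 in place of 40 with 5azadC and 38 in place of 59 with VX680, and 5 in place of 9 for 5azadC against VX680 and for both drugs against VX680. Without histone and non-coding RNA members, near-silent alleles that fell numbered 1 in place of 2 with VX680 and 0 in place of 1 for both drugs against VX680, and 0 in place of 1 ratios moved away with 5azadC.

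For members moving toward the near-silent allele, DESeq2 gave 0 in each of the 6 comparisons. With 5azadC against untreated cells (1) the count was 3 with no filter on low reads, 0 under the 2% limits, 2 under the 10% limits and 0 at 400 reads. With VX680 (1) it was 3 with no filter and 3 under the 10% limits. With both drugs (5) it was 3 under the 2% limits, 9 under the 10% limits and 3 at 400 reads. Under the 10% limits it was 2 for 5azadC against VX680 and 2 for both drugs against 5azadC. For both drugs against VX680 (2) it was 1 with all 8 libraries, 0 under the 2% limits, 0 at 400 reads and 1 where each untreated library had to pass. With a library left out these counts ranged from 1 to 2, 0 to 4 and 1 to 4 with 5azadC, VX680 and both drugs against untreated cells, 0 to 1 for 5azadC against VX680, 0 to 2 for both drugs against 5azadC and 0 to 1 for both drugs against VX680.

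For near-silent alleles that rose, with 5azadC (7) DESeq2 gave 2, the 2% limits 2, the 10% limits 11 and 400 reads 4. With VX680 (3) DESeq2 gave 1 and the 10% limits 6. With both drugs (5) DESeq2 gave 3, the 2% limits 2, the 10% limits 11 and 400 reads 2. For 5azadC against VX680 (5) DESeq2 gave 3, the 2% limits 1 and 400 reads 2. For both drugs against VX680 (1) DESeq2 gave 0, no filter 3, the 2% limits 0, the 10% limits 2 and 400 reads 0. There edgeR had 4 members and DESeq2 2 at an unadjusted p under 0.05. With a library left out the counts ranged from 3 to 6, 1 to 3 and 3 to 4 with 5azadC, VX680 and both drugs against untreated cells, 0 to 4 for 5azadC against VX680, 0 to 3 for both drugs against 5azadC and 0 to 0 for both drugs against VX680.

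Members whose total level changed with 5azadC (73) numbered 112 under the 10% limits and 31 at 400 reads, with VX680 (86) 47 at 400 reads, and with both drugs (92) 139 under the 10% limits and 48 at 400 reads. For 5azadC against VX680 (44) the count was 22 at 400 reads. For both drugs against 5azadC (56) it was 37 under the 2% limits and 31 at 400 reads. For both drugs against VX680 (13) it was 22 with no filter, 8 under the 2% limits and 7 at 400 reads. With a library left out they ranged from 54 to 79, 58 to 68 and 70 to 83 with 5azadC, VX680 and both drugs against untreated cells, 20 to 54 for 5azadC against VX680, 36 to 61 for both drugs against 5azadC and 2 to 3 for both drugs against VX680.

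The pooled share of the near-silent allele was 2.49% with 5azadC, 2.82% with VX680 and 2.33% with both drugs, against 2.06% untreated. The median over members was 1.18%, 1.14% and 1.19%, against 0.952%. Under the 2% limits the pooled share was 1.15%, 1.26% and 1.3%, against 0.962%, and under the 10% limits 3.35%, 3.73% and 3.23%, against 2.88%. Without histone and non-coding RNA members the pooled share was 1.97%, 1.85% and 1.85%, against 1.52%. Without the member with most silent reads it was 1.82% with both drugs, against 1.54% untreated, and without the chromosome 2 stretch 2.43%, against 2.14%. Single libraries gave 2.12% to 2.74% with 5azadC, 2.14% to 3.3% with VX680 and 2.27% to 2.39% with both drugs, against 2.01% to 2.1% untreated.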
